A study of Drosophila melanogaster with 12 samples.

Results

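The genes described here are 9 heat shock and chaperone genes of Drosophila melanogaster: the small heat shock protein genes Hsp23, Hsp26, Hsp27 and Hsp67Bc, the Hsp70 family genes Hsp68 and Hsc70-4, the Hsp90 gene Hsp83, the co-chaperone gene stv and the transcription factor gene Hsf. They are the members of a list of 10 symbols that matched the symbol column of a deposited count table of 8802 genes. The other listed gene, Hsp22, is not analysed here. RNA was sequenced in 12 libraries of cells sorted by flow cytometry from the posterior midgut, region R3 through R5, of virgin females, and the labels call them early enterocytes, the young absorptive cells of the gut. There were 4 genotypes with 3 libraries each, and every fly carried myoIA-Gal4, an enterocyte driver, with UAS-GFP and tubGal80TS, a Gal4 repressor that is inactive at high temperature. The partner strain was UAS-SvbRNAi (svb RNAi), UAS-SvbACT::GFP (SvbACT), UAS-Svb3Kmut::GFP (named SvbREP in the labels) or Canton-S (control), where SvbACT and SvbREP are constitutive forms of Shavenbaby, a transcription factor that is made as a repressor and trimmed by the proteasome into an activator. Flies were kept for 3 days at room temperature, then for 6 days at 29 °C, and were dissected when 9 days old. All 4 genotypes thus shared the warm culture, and all shared a tissue digestion of 15 min at 37 °C before the sort, so the table holds no library without that heat. Each library was a pool of cells from a batch of more than 20 females, and the replicates were made on different calendar days. The control cross used another stock and lacked a Shavenbaby transgene, and genotype and stock cannot be told apart.

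Heat shock proteins are chaperones that hold or refold proteins that have lost their shape. In flies the factor Hsf is present in unstressed cells and, on heating or other damage to proteins, binds the promoters of heat shock genes and switches them on within minutes. Hsp70 and small heat shock protein genes respond strongly to heat, whereas the cognate gene Hsc70-4 is expressed constitutively and Hsp83 is abundant in unheated cells and rises further on heating. The gut epithelium meets food toxins and microbes, and chaperones are part of its response to stress.

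Library totals ran from 3209182 to 8881488 counts. The targeted gene, ovo, which encodes Shavenbaby, was at 16.1, 7.91 and 6.54 CPM (a gene's count divided by the library total and scaled to 1e+06) in libraries labelled svb RNAi, at 217, 182 and 105 CPM in SvbACT, at 525, 227 and 170 CPM in SvbREP and at 11.3, 2.06 and 1.28 CPM in control, in the order of the library numbers 1, 2 and 3 of the description labels. A gene was called where its Benjamini-Hochberg adjusted p from edgeR's quasi-likelihood test was under 0.05. By that test ovo was higher than in control in SvbACT, by 5.04 on the log2 scale (SE 0.69, adjusted p = 0.00302), and in SvbREP, by 5.88 (SE 0.70, adjusted p = 0.00186). For svb RNAi the log2 value was 0.83 (SE 0.69, adjusted p = 0.468 by edgeR), so the counts do not show the knockdown that this label names, and "svb RNAi" stands for the label throughout. Leaving out 1 library gave 0.37 without svb RNAi number 1, 0.45 without control number 2, 0.43 without control number 3 and 2.41 without control number 1, none of them called by edgeR. In the 8 libraries numbered 2 or 3, ovo was called higher in svb RNAi (1.95, adjusted p = 0.0227 by edgeR). Progenitor markers were counted along with enterocyte markers in these cells labelled enterocytes. The 7 progenitor genes matched summed to 4437 to 6346 CPM over the 12 libraries, and the 10 enterocyte genes to 717 to 4404 CPM. The sums are not scaled by gene length, so they do not rank the 2 lists. In bulk libraries, fewer cells of a type and less RNA per cell cannot be told apart.

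The members lie on chromosome 3 apart from Hsf, which is on arm 2R. Positions are those of the BDGP6.54 annotation, whose genome is the dm6 build named in the submitters' processing notes. Hsp67Bc (9371511 to 9372497), Hsp26 (9376418 to 9377427), Hsp23 (9381882 to 9382765) and Hsp27 (9384063 to 9385694) are neighbours in a stretch of 14.18 kb on arm 3L, and all 4 have a single exon block. Hsp83 (3192969 to 3197059) and stv (13477541 to 13483515) are elsewhere on 3L, while Hsc70-4 (15242687 to 15246614) and Hsp68 (24055080 to 24057310) are on 3R. Exons of Hsp27, Hsp68 and Hsp83 overlap genes on the other strand by 49, 26 and 15 bp, and the strand setting of the counting is not given in the sources used here.

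The members were abundant. The sum of the members took 1.88% to 2.91% of the counts of a library, with 23847, 18830 and 19811 CPM in libraries labelled svb RNAi, 27321, 21057 and 20076 CPM in SvbACT, 29104, 24550 and 19210 CPM in SvbREP and 28536, 23219 and 21236 CPM in control. The number 1 library was the highest of each genotype. Per kb of exon, Hsp26 led in control at 2649 ± 950 CPM per kb (SD, n = 3), followed by Hsp83 at 2601 ± 106, Hsc70-4 at 2217 ± 121 and Hsp68 at 2124 ± 725 CPM per kb. This order is that of the means: Hsp26 was above Hsp83 in control number 1 and below it in the other control libraries. Hsp26 thus overlapped Hsp83, and Hsp68 overlapped Hsc70-4, Hsp83 and Hsp26, whereas each Hsp83 library was above each Hsc70-4 library. Hsp23 stood at 1061 ± 282 CPM per kb and overlapped Hsp27 at 798 ± 359, and stv at 204 ± 90.2 overlapped Hsp67Bc at 103 ± 49.1. Hsf was the lowest, at 36.3 ± 3.05 CPM per kb, with no overlap with the gene above it.

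**Figure D1:**
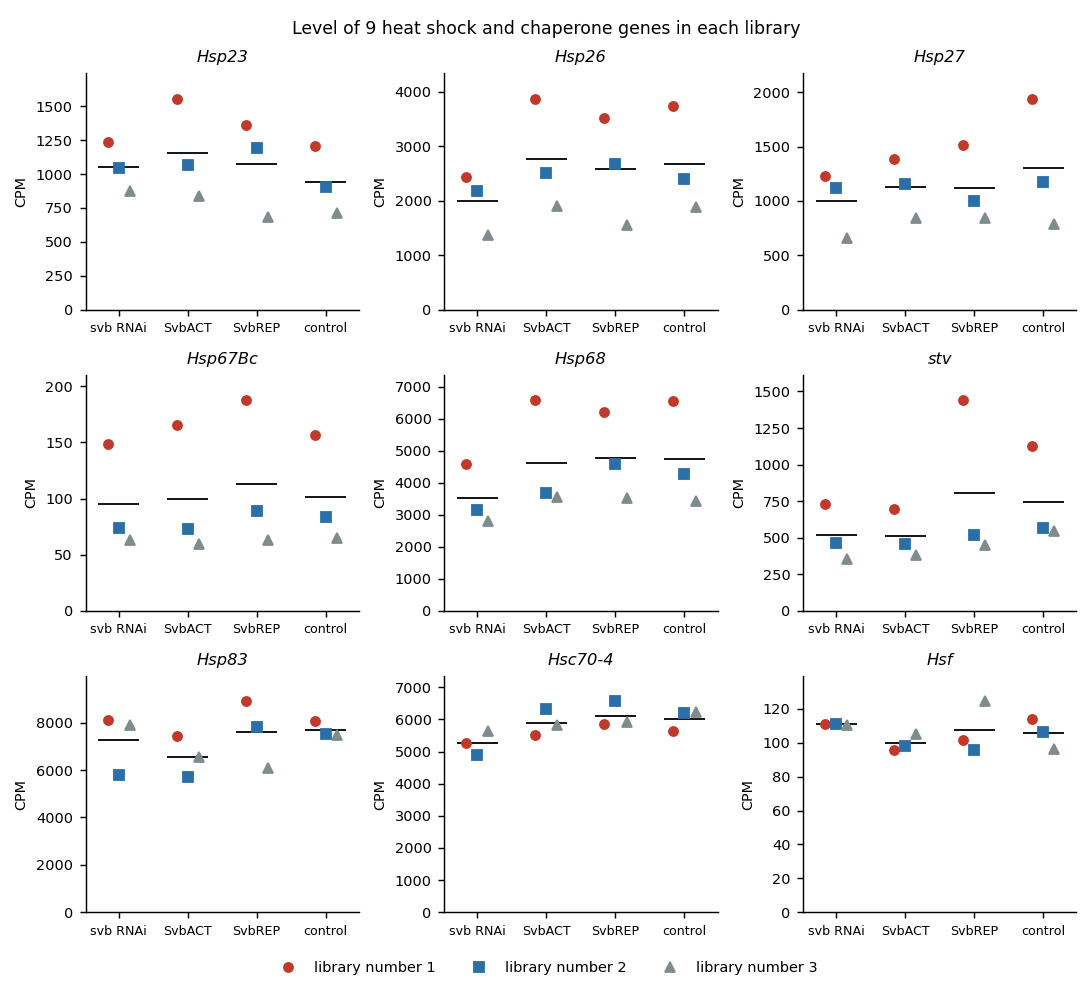
Level of each of the 9 genes in CPM (vertical axes, from 0) in each library of 4 genotypes (horizontal axes), with the mark showing the library number and the bar the mean of 3 libraries. Red number 1 points are the highest of their genotype for 7 genes, while Hsc70-4 and Hsf show no such order, and each genotype overlaps control for each gene, except Hsp83 in SvbACT, whose 3 libraries lie below the control libraries.

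The small heat shock proteins bind unfolding proteins without using ATP and keep them from clumping. Hsp26 was at 2442, 2176 and 1376 CPM in libraries labelled svb RNAi, 3877, 2509 and 1906 CPM in SvbACT, 3522, 2680 and 1549 CPM in SvbREP and 3744, 2392 and 1889 CPM in control. The genotypes overlapped, and in each of them the number 1 library was the highest and number 3 the lowest. Hsp27, which is found in the nucleus as well as the cytoplasm, was at 1234, 1121 and 655 CPM in libraries labelled svb RNAi, 1382, 1152 and 839 CPM in SvbACT, 1517, 997 and 842 CPM in SvbREP and 1942, 1173 and 792 CPM in control. The highest value belonged to a control library and the lowest to an svb RNAi library, and each genotype overlapped control.

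Hsp23, a cytosolic small heat shock protein, was at 1237, 1048 and 872 CPM in libraries labelled svb RNAi, 1557, 1066 and 840 CPM in SvbACT, 1360, 1191 and 679 CPM in SvbREP and 1205, 901 and 710 CPM in control. Its number 1 libraries were all above its 8 other libraries. Hsp67Bc, which works with stv in clearing aggregates by autophagy, was at 149, 74.1 and 62.9 CPM in libraries labelled svb RNAi, 165, 73.2 and 59.8 CPM in SvbACT, 188, 89.1 and 62.9 CPM in SvbREP and 157, 83.2 and 65.2 CPM in control. The 4 number 1 libraries held 149 to 188 CPM of Hsp67Bc, and the other 8 held 59.8 to 89.1 CPM.

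Hsp68 is an inducible Hsp70 protein, which refolds proteins with ATP. It was at 4580, 3150 and 2813 CPM in libraries labelled svb RNAi, 6583, 3669 and 3568 CPM in SvbACT, 6206, 4575 and 3510 CPM in SvbREP and 6543, 4258 and 3416 CPM in control. Each svb RNAi library was below the control library of its own number, by a ratio of 0.700, 0.740 and 0.823. The protein of stv (starvin) is a BAG co-chaperone that makes Hsp70 proteins release their clients. stv was at 733, 462 and 355 CPM in libraries labelled svb RNAi, 697, 459 and 381 CPM in SvbACT, 1443, 522 and 448 CPM in SvbREP and 1130, 565 and 548 CPM in control. Same-number ratios of stv to control were 0.649, 0.818 and 0.648 in svb RNAi and 0.617, 0.813 and 0.694 in SvbACT, all below 1, whereas in SvbREP they were 1.28, 0.924 and 0.817.

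The constitutive genes varied less. Hsc70-4, the main cytosolic Hsp70 of unstressed cells, was at 5261, 4896 and 5653 CPM in libraries labelled svb RNAi, 5503, 6312 and 5840 CPM in SvbACT, 5858, 6566 and 5908 CPM in SvbREP and 5641, 6196 and 6224 CPM in control. The highest svb RNAi library was just above the lowest control library, and the number 1 library was the highest in no genotype. Hsp83, the cytosolic Hsp90, was at 8101, 5792 and 7914 CPM in libraries labelled svb RNAi, 7461, 5718 and 6537 CPM in SvbACT, 8909, 7835 and 6086 CPM in SvbREP and 8060, 7544 and 7497 CPM in control. The 3 SvbACT libraries were all below the 3 control libraries, a pattern that 11.6% of all genes tested shared in that comparison. Hsf lay between 95.8 and 125 CPM in all libraries. It was at 111, 111 and 111 CPM in libraries labelled svb RNAi, 95.8, 98.1 and 105 CPM in SvbACT, 101, 95.9 and 125 CPM in SvbREP and 114, 106 and 96.4 CPM in control.

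The first question was whether Shavenbaby RNAi or its constitutive forms changed these genes. All 9 members passed the filter on low counts, which left 8296 genes. With genotype as the only term, edgeR's quasi-likelihood test called 0 of the 9 in libraries labelled svb RNAi against control. Of all genes tested, 11.1% were called there. An unadjusted p under 0.05 was found for 1 member, Hsc70-4, and for 2331 of the 8296 genes. Values below 0 were found for 8 members, and the median log2 fold change was -0.35, against 0.01 over all genes tested. Scaling by library totals in place of TMM (trimmed mean of M values) moved the median of all genes to 0.16 and that of the members to -0.19. The lowest values were those of stv (-0.70, SE 0.45, adjusted p = 0.335), Hsp68 (-0.59, SE 0.32, adjusted p = 0.246), Hsp26 (-0.58, SE 0.36, adjusted p = 0.311) and Hsp27 (-0.54, SE 0.34, adjusted p = 0.332). Hsc70-4 came nearest to a call, at -0.35 (SE 0.11, adjusted p = 0.0567), and was called by DESeq2 (adjusted p = 0.00441). In the authors' deposited table, none of the 9 was called in any of its 3 comparisons with control, and the share of all genes called there is not given here.

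Libraries with the same number deviated together over all genes, so the number was also fitted as a block. With the block, 5 of the 9 members fell in libraries labelled svb RNAi against control, where 19.6% of all genes tested were called and 9.91% were called lower. They were stv (-0.67, SE 0.16, adjusted p = 0.0102), Hsp68 (-0.57, SE 0.12, adjusted p = 0.00535), Hsp26 (-0.56, SE 0.13, adjusted p = 0.00952), Hsp27 (-0.49, SE 0.14, adjusted p = 0.0308) and Hsc70-4 (-0.35, SE 0.10, adjusted p = 0.0311). The members that fell include heat-inducible chaperones, their co-chaperone and the constitutive cognate. The other 4 were not called: Hsp67Bc at -0.26 (95% interval -0.53 to 0.02), Hsp83 at -0.25 (-0.54 to 0.03), Hsf at -0.09 (-0.39 to 0.22) and Hsp23 at 0.03 (-0.25 to 0.31). The value of Hsf turned to 0.07 with library totals. Over the 12 fits that each left out 1 library from the blocked fit, Hsp68 kept its call in 12, Hsp26 and stv in 10, Hsp27 in 8 and Hsc70-4 in 6.

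Without svb RNAi number 1, 1 member was called with the block, without svb RNAi number 3 or without control number 1 there were 2, and without control number 2 there were 3. With library totals there were 3, as Hsp27 (adjusted p = 0.0920) and Hsc70-4 (adjusted p = 0.177) were not called by edgeR. Markers of other cells moved with the same comparison. The 13 visceral muscle genes summed to 1184 to 1839 CPM in libraries labelled svb RNAi and to 1845 to 2834 CPM in control, and 8 of the 13 were called lower with the block. The 10 enteroendocrine genes summed to 471 to 1173 CPM in svb RNAi and to 888 to 3371 CPM in control, with 4 called lower, and the 10 enterocyte genes to 1095 to 4404 CPM in svb RNAi and 717 to 1239 CPM in control, with 2 called higher and 2 lower. The 7 progenitor genes summed to 4437 to 4948 CPM in svb RNAi and to 5612 to 5681 CPM in control, with 2 called higher and 2 lower. The 2 hemocyte genes matched summed to 3.65 to 15.6 CPM in svb RNAi and to 14.4 to 26.2 CPM in control, and 1 of the 2 was at 0 in 1 library of each. The hemocyte gene tested, Sr-CI, was called lower in svb RNAi with the block (-1.57, adjusted p = 0.00451 by edgeR) and without it (-1.52, adjusted p = 0.0403). Svb RNAi number 1 stood apart with the highest enterocyte sum and with the muscle genes Tm2 and Mp20 and the hormone gene Dh31 at 0. The part of these differences in the members' values was not tested.

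**Figure D2:**
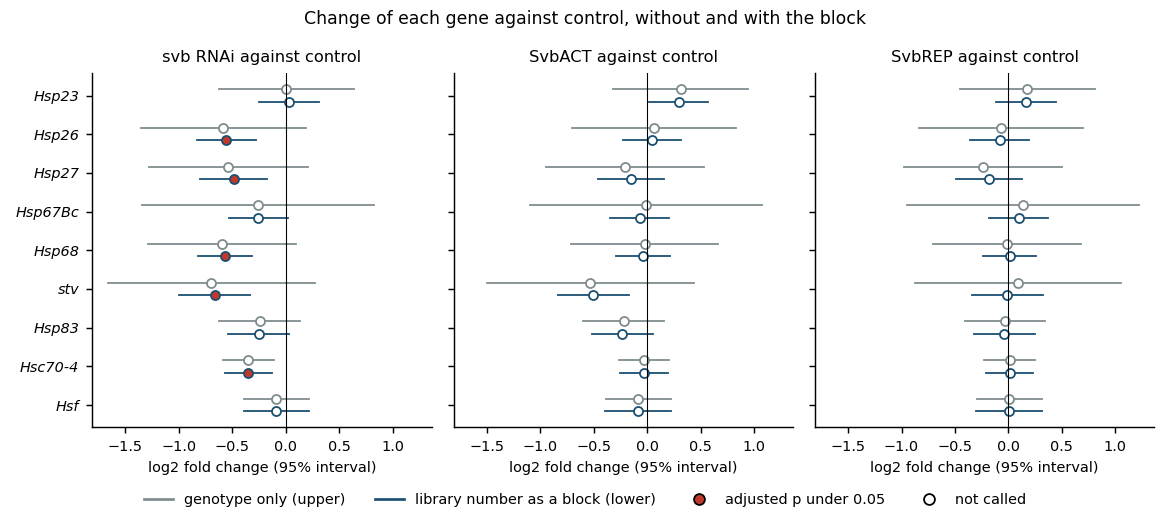
Log2 fold change of each member against control (horizontal axes) with its 95% interval, for 3 genotypes, from the fit with genotype only (upper, grey) and with the library number as a block (lower, blue). Red points passed an adjusted p of 0.05 over 8296 genes: 5 members in svb RNAi with the block, at -0.67 to -0.35, and none in SvbACT or SvbREP.

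The constitutive forms gave no call. In SvbACT against control, edgeR called 0 of 9 members where 1.57% of all genes tested were called, and DESeq2 called 0. No member had an unadjusted p under 0.05, while 1132 of the 8296 genes did. With the block edgeR also called 0 of 9, where 3.85% of all genes were called. An unadjusted p under 0.05 was then found for 1561 of the 8296 genes and for 2 members. These were stv (-0.50, 95% interval -0.83 to -0.17, adjusted p = 0.0968) and Hsp23 (0.29, 0.02 to 0.57, adjusted p = 0.243). The members' median was -0.03 against 0.02 for all genes. In SvbREP against control, edgeR called 0 of 9 where 1.21% were called, and DESeq2 called 0. An unadjusted p under 0.05 was found for 0 members and for 1078 of the 8296 genes. With the block edgeR called 0 of 9 where 3.56% were called. There the largest values with the block were -0.18 for Hsp27 (95% interval -0.49 to 0.13) and 0.17 for Hsp23 (-0.11 to 0.44), and Hsp68 was at 0.01 (-0.24 to 0.26). In SvbACT the Hsp68 value was -0.04 (-0.29 to 0.21). The 3 comparisons share the control libraries.

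Between the 2 forms, SvbACT against SvbREP, edgeR called 0 of 9 members where 0.0723% of all genes were called, and DESeq2 called 0. An unadjusted p under 0.05 was found for 0 members and for 425 of the 8296 genes. With the block edgeR also called 0, where 0.386% were called. Of the members, stv alone then had an unadjusted p under 0.05 (-0.49, SE 0.15, adjusted p = 0.356), as did 612 of the 8296 genes. The stv level differed most between the number 1 libraries, at 697 CPM in SvbACT and 1443 CPM in SvbREP. For any difference among the 4 genotypes, edgeR called 0 of 9 where 6.58% of all genes were called. An unadjusted p under 0.05 was found for 1 member, Hsc70-4, and for 1869 of the 8296 genes. DESeq2 called 1, also Hsc70-4. With the block edgeR called 3, Hsp68 (adjusted p = 0.0120), stv (adjusted p = 0.0172) and Hsp26 (adjusted p = 0.0198), where 15.0% of all genes were called.

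In every genotype, the number 1 library was the highest for all 4 small heat shock protein genes, Hsp68, stv and Hsp83. The labels give each library a number from 1 to 3 without saying what it marks. A test of the number across the 12 libraries, with genotype as a covariate, called 6 of the 9 members by edgeR's quasi-likelihood test, where 3.81% of all genes tested were called. These were Hsp67Bc (adjusted p = 6.29e-05), stv (0.000813), Hsp26 (0.000925), Hsp68 (0.00108), Hsp27 (0.00309) and Hsp23 (0.00474): all 4 small heat shock protein genes, the inducible Hsp70 gene and the BAG co-chaperone gene. All 6 kept their call in each fit that left out 1 library. Hsp83 (adjusted p = 0.185), Hsf (0.852) and Hsc70-4 (0.891) were not called.

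All 6 were higher in the number 1 libraries than in both other numbers, as were 2.51% of all genes tested. The log2 difference of number 1 from number 2 and from number 3 was 1.09 and 1.43 for Hsp67Bc (SE 0.11 each), and 0.98 and 1.21 for stv (SE 0.13 and 0.14). It was 0.66 and 0.88 for Hsp68, 0.50 and 1.05 for Hsp26, 0.48 and 0.98 for Hsp27 and 0.39 and 0.83 for Hsp23, with SE of 0.10 to 0.13. On the CPM scale Hsp67Bc averaged 165 ± 16.9 in number 1, 79.9 ± 7.62 in number 2 and 62.7 ± 2.21 in number 3 (SD, n = 4 libraries, 1 of each genotype), and the ratio of number 1 to number 3 within a genotype was 2.36 to 2.99. For stv the means were 1001 ± 354, 502 ± 50.8 and 433 ± 86.3 CPM, and for Hsp68 5978 ± 947, 3913 ± 632 and 3327 ± 348 CPM. The 4 number 1 libraries were all above the other 8 for 5 members, Hsp23, Hsp27, Hsp67Bc, Hsp68 and stv, as they were for 1.27% of all genes tested. The number 1 library was the highest of each genotype for 7 members, those 5 with Hsp26 and Hsp83, and for 5.03% of all genes.

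**Figure D3:**
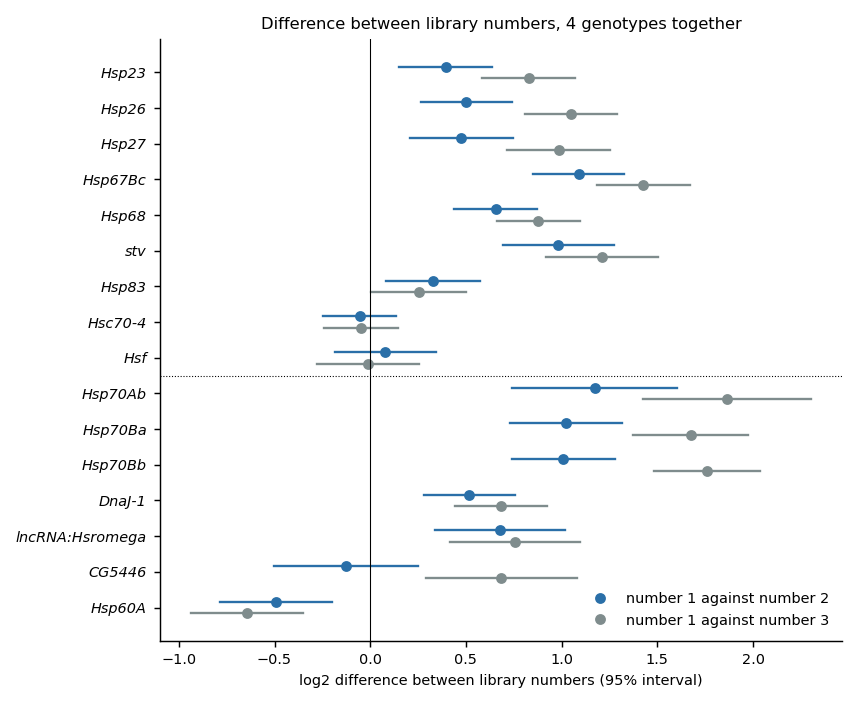
Log2 difference of the number 1 libraries from number 2 (blue) and number 3 (grey), with 95% intervals, over 4 genotypes together, for the 9 members (above the dotted line) and the 7 other chaperone and stress genes called by the number (below it). Points right of 0 are higher in number 1: Hsp67Bc at 1.09 and 1.43 leads the members, the intervals of Hsc70-4 and Hsf include 0, and Hsp60A lies left of 0 at -0.49 and -0.65.

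The values of numbers 2 and 3 were also set side by side, with no test of their own. The log2 difference of number 2 from number 3 was 0.55 for Hsp26 (95% interval 0.31 to 0.78), 0.51 for Hsp27 (0.24 to 0.78), 0.44 for Hsp23 (0.19 to 0.68) and 0.34 for Hsp67Bc (0.10 to 0.58). It was 0.22 for Hsp68 (0.01 to 0.44) and 0.23 for stv (-0.06 to 0.52). The numbers also differed in depth and in markers. Library totals were 4850077 to 7652286 counts in number 1, 5346713 to 8881488 in number 2 and 3209182 to 4695678 in number 3. The enterocyte genes summed to 947 to 4404 CPM in number 1, 717 to 1095 CPM in number 2 and 780 to 1183 CPM in number 3, with 4 of 10 called by the number, and the muscle genes to 1184 to 1845, 1555 to 2834 and 1399 to 2513 CPM, with 4 of 13 called. These muscle sums hide lower values of single genes in number 1. Within a genotype, Mhc in number 1 was 0.0992 to 0.280 of number 2 and 0.0166 to 0.188 of number 3. Act57B, Mlc1, wupA, Tm2, up, bt, sls and Prm were likewise below both other numbers in each genotype. The share of all genes that were lowest in number 1 in each genotype is not given here. Tm1 hardly differed (0.841 to 1.14 and 1.03 to 1.15), and Mlc2, Mp20 and vn had ratios on both sides of 1. Enteroendocrine genes summed to 272 to 888, 340 to 3371 and 301 to 2352 CPM, and progenitor genes to 4437 to 6346, 4659 to 5681 and 4462 to 5612 CPM, with no gene of either list called by edgeR. In control, Tk, NPF and Dh31 in number 1 were 0.00857 to 0.0329 of the other numbers, and in svb RNAi 0 to 0.0545. In SvbACT and SvbREP these ratios were 0.514 to 3.35. The 2 hemocyte genes summed to 11.1 to 32.0, 3.65 to 19.4 and 14.6 to 22.4 CPM, with none called. Their part in the members' values was not tested. Numbers in the sample titles differ from the description numbers in the svb RNAi libraries, and with the title numbers no member and no gene was called by edgeR.

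**Figure D4:**
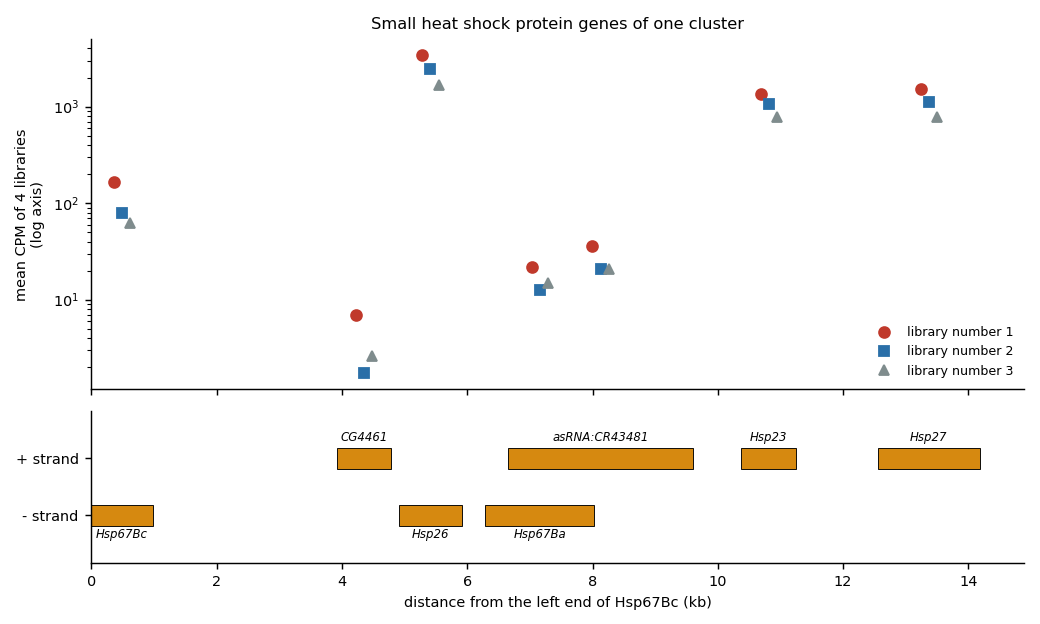
Upper panel, mean CPM of the 4 libraries of each number (log axis) for the genes with counts in the stretch of 14.18 kb on arm 3L, placed by their position in kb from the left end of Hsp67Bc. Lower panel, the extent and strand of each gene: each gene has its highest mean in number 1, from 6.93 CPM for CG4461 to 3396 CPM for Hsp26.

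Neighbours of the small heat shock genes on 3L were much lower. CG4461, a predicted small heat shock protein gene, averaged 6.93 ± 3.40 CPM in number 1, 1.73 ± 0.68 in number 2 and 2.60 ± 1.95 in number 3, and was not called by the number. Hsp67Ba, another gene of the family, averaged 21.7 ± 7.21, 12.5 ± 4.11 and 14.8 ± 7.06 CPM and was not called either. Its exons overlap those of asRNA:CR43481 on the other strand by 1316 bp, and reads of the pair may not be separated. asRNA:CR43481 averaged 36.0 ± 11.6, 20.7 ± 2.43 and 20.6 ± 8.95 CPM. Hsp67Ba was higher in libraries labelled svb RNAi with the block (1.01, SE 0.24, adjusted p = 0.0123 by edgeR), at 31.8, 16.9 and 25.2 CPM against 14.7, 7.11 and 11.3 CPM in control. The asRNA was at 52.8, 23.8 and 29.3 CPM in svb RNAi and 33.0, 18.9 and 11.3 CPM in control.

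Of 72 other chaperone and stress genes on the lists used, 57 were in the table and 56 passed the filter. Without the block edgeR called 6 of the 56 in libraries labelled svb RNAi against control, 3 higher and 3 lower, a share near the background, where 11.1% of all genes tested were called, 4.89% higher and 6.23% lower. Called higher were Hsc70-5 (0.80, adjusted p = 0.0254), the mitochondrial Hsp70, CG11267 (0.89, adjusted p = 0.0359), the mitochondrial Hsp10, and Gp93 (0.74, adjusted p = 0.0334), the Hsp90 of the endoplasmic reticulum. The 3 called lower were the J-domain genes DnaJ-1 (-0.91, adjusted p = 0.0443), the heat-inducible Hsp40, and mrj (-0.76, adjusted p = 0.0137), with puc (-0.84, adjusted p = 0.0121), a phosphatase that is a target and brake of JNK signalling. DnaJ-1 was at 1045, 900 and 838 CPM in libraries labelled svb RNAi, 1668, 1059 and 1057 CPM in SvbACT, 1892, 1302 and 986 CPM in SvbREP and 1983, 1433 and 1264 CPM in control, and all 3 svb RNAi libraries were below all 3 control libraries, as they were for 11.9% of all genes tested. Each of the 6 lost its call without at least 1 library: all except puc without svb RNAi number 3, and all except mrj without control number 1, where the adjusted p of DnaJ-1 was 0.178 by edgeR. Without control number 1, and likewise without control number 2, 1 of the 56 was called. There were 2 without svb RNAi number 3, 3 without svb RNAi number 1 and 11 without SvbACT number 1.

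With the block edgeR called 18 of the 56 in svb RNAi against control, 11 higher and 7 lower, where 19.6% of all genes tested were called, 9.74% higher and 9.91% lower. Those called higher were mitochondrial, endoplasmic reticulum and cytosolic folding genes, with no heat-inducible Hsp70 among them. Hsp60A, the mitochondrial chaperonin, was at 0.83 (adjusted p = 0.00345) and CG11267, its lid, at 0.89 (0.00394). Both measured genes of the Hsp60 and Hsp10 list were called. Hsc70-5 (0.82), Trap1 (0.51), the mitochondrial Hsp90, Gp93 (0.76), Fkbp59 (0.56), an immunophilin that binds Hsp90, and Hsp67Ba were the others beside the cytosolic chaperonin. Of the 13 genes of that chaperonin (TRiC/CCT) and its partner prefoldin, 4 were called higher, CCT5 (0.62), CCT6 (0.58), CCT1 (0.54) and CCT7 (0.41), and the values of all 13 were above 0. The other genotypes leaned the same way against the same control libraries. Without the block, 12 of the 13 values were above 0 in SvbACT (median 0.18) and 11 in SvbREP (0.29), against a median of 0.43 in svb RNAi. Both Hsp60 and Hsp10 genes were also above 0 in SvbACT and SvbREP, and none of these genes was called there. CCT7 kept its call in 2 of the 12 fits that left out 1 library and CCT1 in 5, whereas Hsp60A, CG11267 and Hsc70-5 kept it in 12.

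The share called lower was near the background. The 7 called lower with the block were Hsp70Ba (-1.65), Hsp70Aa (-1.30), l(2)efl (-2.92), DnaJ-1 (-0.88), mrj (-0.76), puc (-0.81) and Jra (-0.59). Jra encodes the fly Jun. l(2)efl, a small heat shock protein gene related to human HSPB genes, shares 75 bp of exon with the gene St3 and was near the floor. It was at 0.206, 0.243 and 4.67 CPM in libraries labelled svb RNAi against 1.62, 15.1 and 9.98 CPM in control, and kept its call in 6 of 12 fits. Its same-number ratios to control were also below 1 in SvbACT (0.418, 0.0223 and 0.0854) and SvbREP (0.324, 0.171 and 0.209). So were those of puc, DnaJ-1 and Hsp70Ba in both forms. Ratios of mrj, Hsp70Aa and Jra fell on both sides of 1 in SvbACT, SvbREP or both. A count of 0 still allows 3 counts, which correspond to 0.338 to 0.935 CPM in these libraries. Leaving out svb RNAi number 1 left 9 of the 56 genes called with the block, and leaving out svb RNAi number 3 or control number 2 left 11. In the authors' deposited table, 17 of the 57 were called in svb RNAi against control, 12 higher and 5 lower, with 1 called in SvbACT, l(2)efl, which was lower, and 0 in SvbREP. The share of all genes that the authors called is not given here, so these counts have no background beside them.

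The heat-inducible Hsp70 copies are nearly identical, so reads may be assigned to the wrong copy and single copies are uncertain. In libraries labelled svb RNAi, same-number ratios to control were 1.29, 1.01 and 1.21 for Hsp70Bbb and 0.913, 1.25 and 1.38 for Hsp70Bc. For Hsp70Aa, Hsp70Ab, Hsp70Ba and Hsp70Bb they were all below 1. In SvbREP the ratios of Hsp70Bbb were 1.62, 1.54 and 1.19, while those of Hsp70Ba were 0.382, 0.407 and 0.493. Hsp70Ba was at 429, 228 and 108 CPM in libraries labelled svb RNAi, 532, 234 and 159 CPM in SvbACT, 432, 238 and 184 CPM in SvbREP and 1133, 584 and 373 CPM in control. It was the single gene of the 56 called in SvbACT (-1.20, adjusted p = 0.00145) and in SvbREP (-1.24, adjusted p = 0.00146) with the block by edgeR. Of all genes tested, 3.85% and 3.56% were called there. Without the block, edgeR called 0 of the 56 in SvbACT and 0 in SvbREP, where 1.57% and 1.21% of all genes were called. DESeq2 called 1 and 0. An unadjusted p under 0.05 was found for 3 in SvbACT and 4 in SvbREP, against 1132 and 1078 of the 8296 genes. With the block it was found for 9 in SvbACT and 15 in SvbREP, against 1561 and 1532 of the 8296 genes. In SvbACT against SvbREP, edgeR called 0 of the 56 both ways, and DESeq2 called 0. Of all genes, edgeR called 0.0723% there without the block and 0.386% with it. An unadjusted p under 0.05 was found for 0 without the block and 3 with it, against 425 and 612 of the 8296 genes. For any difference among the 4 genotypes, edgeR called 0 of the 56 without the block, where 6.58% of all genes were called. With the block edgeR called 11, where 15.0% were called, and DESeq2 called 7. Because of the likeness of the copies, they were also summed. The sum of the 6 Hsp70 copies was 4691, 2688 and 1225 CPM in libraries labelled svb RNAi, 5294, 2041 and 1652 CPM in SvbACT, 4321, 1944 and 1614 CPM in SvbREP and 5829, 3211 and 1761 CPM in control. The ratio of this sum to the control library of the same number ran from 0.606 to 0.938 over the 3 genotypes, which share the 3 control libraries, and it was not tested. Markers also differed in SvbACT and SvbREP against control. The enteroendocrine genes summed to 301 to 489 CPM in SvbACT, 272 to 475 CPM in SvbREP and 888 to 3371 CPM in control. Of the 10, edgeR without the block called 6 lower in each form, where it called 1.57% and 1.21% of all genes. Against control number 1, NPF was 30.1 times as high in SvbACT and 29.9 times in SvbREP. Dh31 was 13.9 and 11.3 times as high there, and Tk 6.02 and 6.92 times. The other genes were below control in that pair, apart from pros in SvbREP (1.08). In the pairs numbered 2 and 3 all were below control. The muscle genes summed to 1561 to 1651 CPM in SvbACT, 1399 to 1557 CPM in SvbREP and 1845 to 2834 CPM in control, with 13 of 13 values below 0 in each form and, with the block, 3 called lower. The enterocyte genes summed to 864 to 947 CPM in SvbACT, 780 to 1282 CPM in SvbREP and 717 to 1239 CPM in control. The progenitor genes summed to 4936 to 6346 CPM in SvbACT, 4659 to 5255 CPM in SvbREP and 5612 to 5681 CPM in control. The hemocyte genes summed to 13.6 to 31.0 CPM in SvbACT, 19.4 to 32.0 CPM in SvbREP and 14.4 to 26.2 CPM in control. The part of these differences in the chaperone values was not tested.

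**Figure D5:**
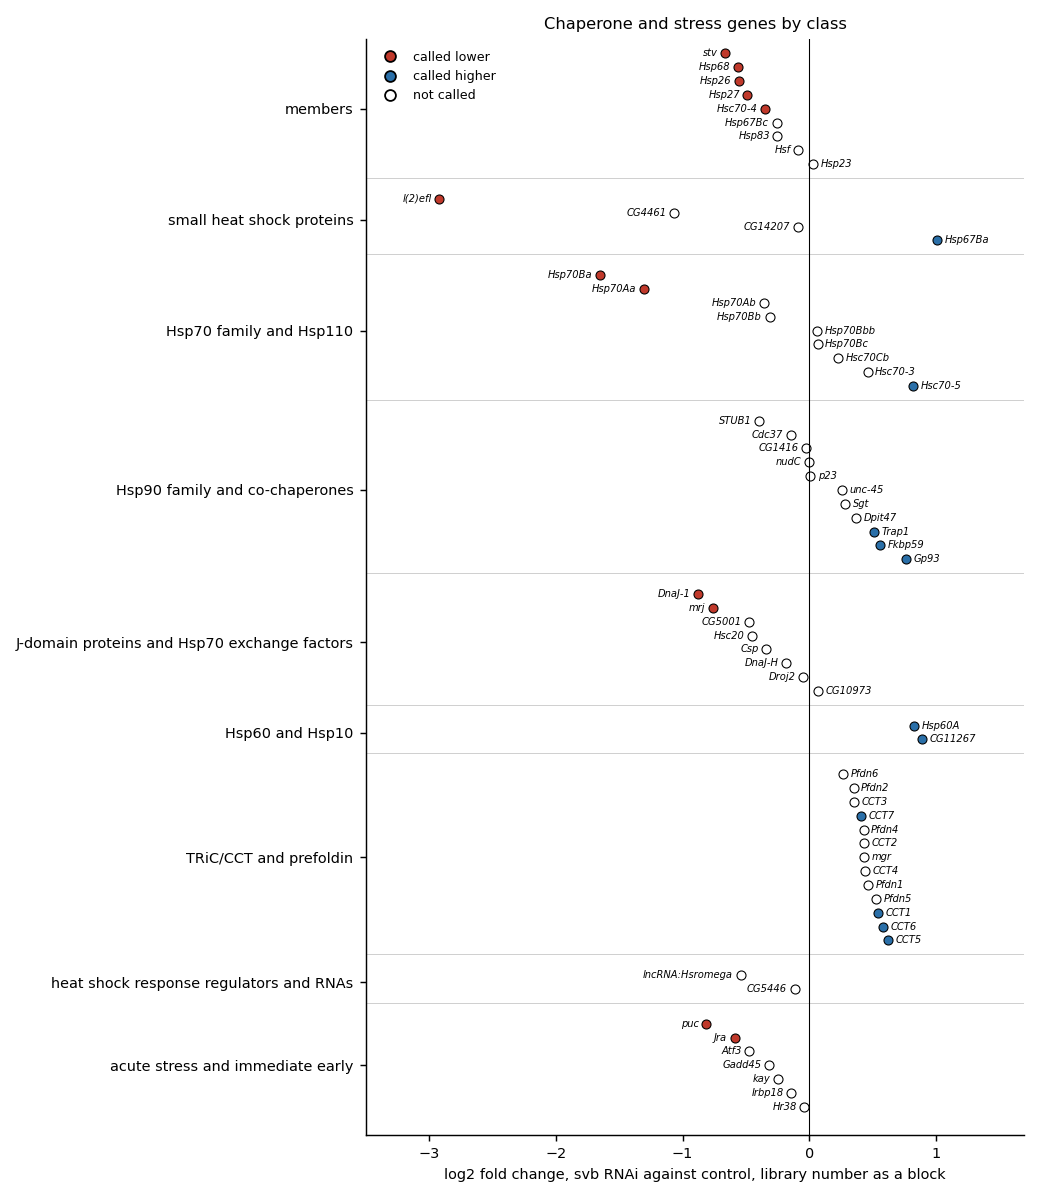
Log2 fold change of each member and of 56 other chaperone and stress genes in libraries labelled svb RNAi against control (horizontal axis), with the library number as a block, grouped by class. Red points were called lower and blue points higher at an adjusted p under 0.05: no member was called higher, and Hsp60A at 0.83 and CG11267 at 0.89 lie right of 0 while DnaJ-1 at -0.88 and Hsp70Ba at -1.65 lie left.

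The library number called 7 of the 56, where 3.81% of all genes tested were called. Higher in number 1 were Hsp70Ab, Hsp70Ba and Hsp70Bb, with log2 differences from number 3 of 1.87, 1.67 and 1.76, lncRNA:Hsromega (0.76), the heat-inducible nuclear RNA hsr-omega, and DnaJ-1 (0.68). The sum of the 6 Hsp70 copies averaged 5034 ± 665 CPM in number 1, 2471 ± 593 in number 2 and 1563 ± 234 in number 3 (SD, n = 4), and the number 1 libraries were all above the others. Hsp60A was lower in number 1, with log2 differences of -0.49 and -0.65 from numbers 2 and 3, at 754 ± 324, 1037 ± 202 and 1180 ± 413 CPM. CG5446, matched to the symbol Hsbp1 of a heat shock factor binding protein, was 0.69 higher in number 1 than in number 3 and at -0.13 (95% interval -0.50 to 0.25) from number 2. The 3 Hsp70 copies kept their call in all 12 fits that left out 1 library, DnaJ-1 in 11, lncRNA:Hsromega in 7, Hsp60A in 5 and CG5446 in 1. The count of 7 became 4 without svb RNAi number 3, SvbACT number 1, SvbACT number 3 or control number 1. None of the 7 genes of the acute stress and immediate early list was called by the number, among them kay, the fly Fos, the most abundant of that list at 1386 to 2775 CPM. None of the 13 chaperonin and prefoldin genes and none of the 11 genes of the Hsp90 list was called by it, whose most abundant genes were CCT2 (343 to 696 CPM) and Gp93 (193 to 569 CPM). The measured CCT genes nonetheless all had lower values in number 1, at -0.43 to -0.27 from number 2 and -0.41 to -0.16 from number 3. Trap1 (-0.27 and -0.44), Fkbp59 (-0.29 and -0.28) and CG1416 (-0.33 and -0.32) were also lower. The other genes of these lists had values on both sides of 0. Of the other 4 small heat shock protein genes none was called by edgeR, CG14207 being the most abundant at 43.5 to 89.1 CPM.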

How the data were processed

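Cells, genotypes and libraries are as described above, with 3 libraries per genotype, each sorted from a pool of flies. The authors deposited whole-number read counts per gene, and per the submitters' processing notes FastQC 0.11.5, STAR 2.5.2b, HTSeq 0.6.0, edgeR and the dm6 build were used, with single reads of 100 nt per the labels. The strand setting and the handling of molecular identifiers and multiply mapped reads are not given in the sources used here. The deposited table also gives the authors' calls as a score of -1, 0 or 1, used here only as the authors' values, and a second header line naming 12 other columns without values, which were not used. No row without a gene was counted.

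The members and gene lists were chosen with earlier results of these data known. Printed levels are CPM from library totals (3 counts equal 0.338 to 0.935 CPM, covering counting error only). Named are the 9 members, ovo, list genes called in a contrast, the most abundant gene of each list and, chosen after their values were seen, list genes called with the block or by the library number. Tests used edgeR 4.0.16 (R 4.3.3): filterByExpr with a minimum count of 10 (8296 genes kept), TMM, and a two-sided quasi-likelihood F test on all 12 libraries with genotype only, Benjamini-Hochberg adjusted over all genes. TMM factors of 1.07 to 1.09 in the svb RNAi libraries make fitted values lower than ratios of CPM. SE are from the F statistic. Scripts were tested on simulated data.

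Whether the description numbers pair libraries was checked from deviations from genotype means. All 18 pairs of same-numbered libraries of different genotypes correlated above 0.1 (0.115 to 0.424, mean 0.250). Other pairs averaged -0.123, but deviations within a genotype sum to 0, so this lower value is no separate evidence. The pairing rests on the same-number correlations and not on a statement in the labels. The number was therefore also fitted as a block. With the title numbers, 9 of 18 pairs correlated above 0.1 (mean 0.0152). Replicates of 1 genotype were no copies of each other: chi-square over its degrees of freedom was at least 7.79. Alternatives were library totals, DESeq2 size factors, DESeq2 1.42.0, other filters, other numbering, fewer genotypes, and leaving out each library. Correlations between members over libraries are not given, since the libraries fall apart by number. Gene names and positions came from the BDGP6.54 annotation, which held 9 members and 56 of the other list genes.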

Additional observations from a re-analysis of the deposited data

How the results depend on the processing

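No called value changed sign under any alternative run; sign changes of values uncalled in both fits were not counted. Of 783 values of members in the 4 contrasts under alternatives, 774 stayed on the same side of the threshold; the others were the 5 block calls and Hsc70-4 in svb RNAi under 4 alternatives. With genotype only, edgeR called 0 members in svb RNAi, but 1, Hsc70-4, with DESeq2 size factors, with DESeq2, with a mean of at least 10 CPM or without SvbACT replicate 1 (range 0 to 1 over libraries left out), and 5 with the replicate block. Members called for any difference went to 1 with DESeq2 and 3 with the block, and for the library number from 6 to 0 with title numbers (other list genes from 7 to 0, and 4 to 7 with a library left out). Block calls in svb RNAi were 3 with library totals, and 1 to 5 with a library left out. Other list genes called in svb RNAi were 6, 11 with DESeq2, 18 with the block, 1 to 11 with a library left out, and 9 to 24 with the block and a library left out. The number of all genes that DESeq2 called in svb RNAi is not given here, so its counts there have no background beside them.

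Over all genes, svb RNAi gave 923 calls (44.0% higher), 1153 with library totals (66.8% higher), 1630 with the block and 571 in the 8 libraries numbered 2 or 3. SvbACT gave 130, 327 with DESeq2, 68 at a mean of at least 10 CPM, 319 with the block and 70 with a title-number block. SvbREP gave 100, 275 with DESeq2, 295 and 44 with those blocks, and 47 with its 2 genotypes alone. SvbACT against SvbREP gave 6, 41 with DESeq2, 10 at 10 CPM, 32 and 10 with the blocks, and 17 in the 8 libraries. Any difference gave 546, 1139 with DESeq2 and 1247 with the block, and the library number 316, against 0 with title numbers. With a library left out the ranges were 408 to 1101, 22 to 151, 20 to 107, 0 to 10, 266 to 642 and 131 to 320, in the order of these 6 comparisons. The 8-library, svb RNAi left-out and block-with-scaling or block-with-library fits were chosen after seeing the data. Causes were not tested. With 1 library per genotype and number, an interaction of the 2 could not be fitted, and 3 libraries per genotype limit the differences these data can show.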
